A study of Rattus norvegicus with 19 samples.

Results

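The rat major histocompatibility complex is called RT1, and its genes were followed here together with genes that load peptides onto their products. Members were chosen by gene name: every non-control probe of the array whose name begins with RT1-, plus the probes of Cd74, B2m, Tap1, Tap2, Tapbp, Psmb8 and Psmb9. This gave 78 probes of 55 gene names, of 45598 probes and 36174 names on the array. Of them, 66 probes of 47 names exceeded background clearly on 5 or more of the 19 arrays and entered the comparisons. No measured value entered the choice, but the family was proposed with earlier results of these arrays known. Its differences and adjusted p-values are therefore given as descriptions of single probes and not as independent evidence about the family.

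RNA was taken from the renal cortex of male Crl:CD (SD) rats, an outbred stock, and 1 array was hybridised per rat in a single colour. Sham rats (n = 5) received vehicle, and DKD rats (n = 7) received 65 mg/kg of intravenous streptozotocin, which destroys pancreatic beta cells, 7 days before grouping; both ate normal feed. DKD+enarodustat rats (n = 7) received the same streptozotocin dose, and their feed held 0.01% (w/w) enarodustat, an inhibitor of HIF prolyl hydroxylases that stabilises hypoxia-inducible factor. Kidneys were collected 14 days after grouping, and both diabetic groups were matched on glucose and body weight. No genotype of the RT1 region is given for these rats, and the diabetic groups model short insulin-deficient diabetes.

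Class I molecules pair an RT1 heavy chain with the light chain B2m and show peptides from the cell's own proteins to CD8 T cells. Those peptides are cut by the proteasome, whose inducible subunits include Psmb8 and Psmb9, carried into the endoplasmic reticulum by the Tap1-Tap2 transporter and handed over through Tapbp (tapasin). Class II molecules pair an alpha and a beta chain of the RT1-B or RT1-D type, travel with the invariant chain Cd74 and receive peptides with the help of RT1-DM in antigen-presenting cells and, under inflammation, in tubular epithelium. In the rat, class I genes lie on both sides of the class II region: the classical RT1-A genes on one side and a larger, strain-variable set (RT1-C/E, RT1-N, RT1-T, RT1-M and others) on the other.

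Many RT1 genes are close copies, so the probe sequences bear on what each value can say. Each member probe is 60 bases long, and 32 pairs of measured probes, 30 of them between different gene names, aligned without gaps over at least 30 bases with at most 20% mismatches. Such pairs involved 26 of the 66 probes, so a signal may include RNA of a related gene. The probes of the classical genes RT1-A1 (chr20:5060187-5060246 on rn4), RT1-A2 (chr20:5025230-5025289) and RT1-A3 (chr20:5002119-5002178) overlap in 1 stretch. It is shown because all 3 signals moved alike, with the base that differs in capitals.

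RT1-A1: gaatacttagAggttttttgttttggggtt
RT1-A2: gaatacttagAggttttttgttttggggtt
RT1-A3: gaatacttagGggttttttgttttggggtt

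Counted from the first base shown, RT1-A3 differs from RT1-A1 by A11G, and RT1-A2 does not differ there. Over their whole overlap the RT1-A1 and RT1-A3 probes differ at 2 of 47 bases and the RT1-A1 and RT1-A2 probes at 8 of 42. A probe named RT1-CE16 (A_44_P1087143) and a probe named RT1-EC2 (A_44_P1100094) differ at 3 of 58 bases, and the latter is placed at chr20:5059139-5059198, next to RT1-A1. The RT1-CE1 probe ends in a repeat that is also shown, since 15 probes of the array hold 30 or more bases of a GT or AC repeat.

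RT1-CE1: gggagtgtgtgtgtgtgtgtgtgtgtgtgt

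The share of all probes well above background ranged from 54.4% to 67.2% per array. The arrays lay on 3 slides that each carried all groups. Position on the slide was partly tied to group: every Sham array was in row 1, every DKD+enarodustat array in row 2, and only DKD replicates 2 and 4 of the DKD arrays in row 2. For DKD+enarodustat against Sham, slide row and group cannot be told apart. On the log2 scale used below, the lowest signal well above background was -7.71 to -7.37 in Sham and -7.09 to -6.44 in DKD+enarodustat. DKD 2 and DKD 4, of row 2, had -6.47 and -6.38, and the other DKD arrays -7.75 to -7.50. The part of this shift in the differences of dim probes was not tested. Proximal tubule markers were measured for 12 of 12 genes, with a summed level of 8.50 to 9.09 per array. Values below are log2 intensities relative to the 75th percentile of each array, differences are on that log2 scale with the standard error of the fit, and adjusted p-values come from limma, with Benjamini-Hochberg adjustment over all 30258 measured probes.

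In diabetic cortex 14 of 48 class I heavy chain probes rose and 1 fell against Sham, and 1 of 8 class II probes rose; the difference between the classes was not tested. Of the 66 member probes, 17 rose and 1 fell in DKD against Sham; over all measured probes 16.9% were called in either direction and 7.67% were higher. The median member difference was 0.37, and that of all probes was -0.03. In 10 member probes the lowest DKD array exceeded the highest Sham array, as 4.68% of all probes did. The probes that rose were all 3 measured probes of the RT1-A genes, 10 of 22 of the RT1-CE, RT1-Cl and RT1-EC genes, both Tap2 probes, RT1-DMa and 1 RT1-S2 probe.

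**Figure D1:**
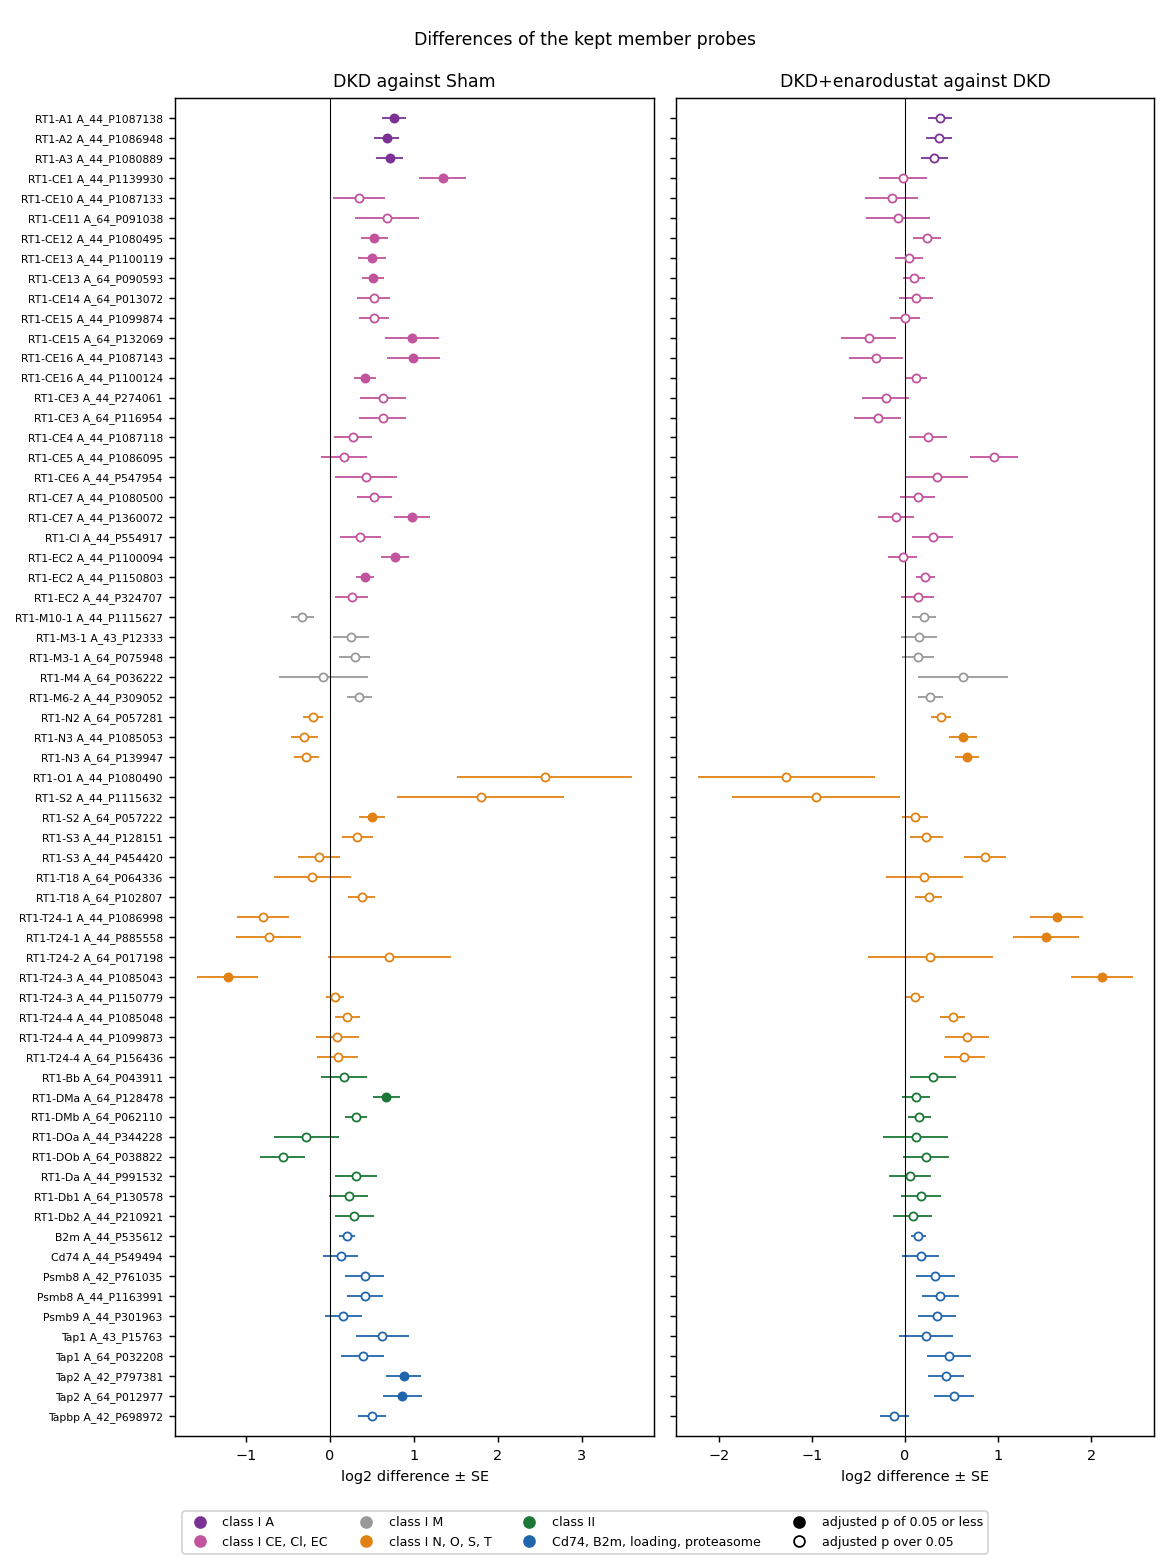
Log2 difference ± standard error of the 66 measured member probes for DKD against Sham (left) and DKD+enarodustat against DKD (right), coloured by family, with filled points where the adjusted p was 0.05 or less. The RT1-A and RT1-CE points lie to the right of 0 on the left, and the RT1-T24-1, RT1-T24-3 and RT1-N3 points to the right of 0 on the right.

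RT1-A1, a classical class I heavy chain, read 3.84, 3.70, 3.76, 3.80 and 3.93 in the Sham arrays. Its DKD arrays ran from 4.21 through a median of 4.52 to 4.85, and its DKD+enarodustat arrays from 4.48 through 4.88 to 5.56. No DKD array reached down to a Sham array, and DKD and DKD+enarodustat overlapped. The DKD mean exceeded the Sham mean by 0.76 ± 0.14, or 1.70-fold (adjusted p = 0.00116). With DKD arrays of slide row 1 only, which share the row of Sham, the difference was 0.75 (adjusted p = 0.00342).

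RT1-A2 rose by 0.68 ± 0.15 (adjusted p = 0.00491), with Sham arrays at 3.77 to 4.03 and DKD arrays at 4.27 to 4.90. RT1-A3 rose by 0.71 ± 0.16 (adjusted p = 0.00465), with Sham at 3.38 to 3.55 and DKD at 3.73 to 4.52. For both, Sham and DKD did not overlap. Within slides 1, 2 and 3 the RT1-A1 difference was 0.80, 0.74 and 0.67, that of RT1-A2 was 0.70, 0.84 and 0.46, and that of RT1-A3 was 0.83, 0.62 and 0.61. A second RT1-A3 probe (A_44_P501234) exceeded background on a single array and did not enter the comparisons.

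Among the RT1-CE, RT1-Cl and RT1-EC genes, non-classical or strain-variable class I heavy chains, all 22 probes had a positive DKD difference, from 0.17 to 1.34, with a median of 0.52. RT1-CE1 had the highest of them: its Sham arrays read 3.69, 4.33, 3.45, 3.69 and 4.08, and its DKD arrays 4.60 to 5.51 with a median of 5.17. The groups did not overlap, and the difference was 1.34 ± 0.28 (adjusted p = 0.00279). This is the probe that ends in 36 bases of GT repeat. RT1-CE7 (A_44_P1360072) rose by 0.98 ± 0.21 (adjusted p = 0.00412). Its second probe, A_44_P1080500, gave 0.53 ± 0.21 (adjusted p = 0.0925).

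All 3 RT1-EC2 probes pointed the same way, and 2 of them passed the test: A_44_P1100094 rose by 0.77 ± 0.17 (adjusted p = 0.0041) and A_44_P1150803 by 0.42 ± 0.11 (adjusted p = 0.0123). Sham and DKD did not overlap for either. The third, A_44_P324707, gave 0.26 ± 0.20 (adjusted p = 0.439). RT1-CE13 (A_64_P090593) rose by 0.51 ± 0.13 (adjusted p = 0.0105), from -1.15 to -0.90 in Sham to -0.81 to -0.37 in DKD.

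The remaining named probes of this set were nearer the threshold. RT1-CE12 rose by 0.53 ± 0.16 (adjusted p = 0.0312). RT1-CE16 rose by 0.99 ± 0.32 at A_44_P1087143 (adjusted p = 0.0393) and by 0.42 ± 0.13 at A_44_P1100124 (adjusted p = 0.0305). Fits without 1 array lost the RT1-CE12 call in 8 of 19 cases (Sham 2 to 5 and DKD 1, 2, 3 and 5; adjusted p up to 0.0723). They lost that of A_44_P1087143 in 9 cases (Sham 2 to 5 and DKD 2, 4, 5, 6 and 7; up to 0.0963) and that of A_44_P1100124 in 7 (Sham 1, 2 and 5 and DKD 2 to 5; up to 0.0757). With the replicate number as a block, both RT1-CE16 calls were lost (0.85, adjusted p = 0.0964, and 0.43, adjusted p = 0.0535). With DKD arrays of slide row 1 only, they were 0.83 (adjusted p = 0.155) and 0.36 (adjusted p = 0.0784). With normexp and quantile normalization A_44_P1100124 gave 0.31 (adjusted p = 0.0934). RT1-CE12 gave 0.53 once slide row was a covariate (adjusted p = 0.0624). At A_44_P1087143 Sham 1 read 1.20 and the other Sham arrays 0.05 to 0.25.

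Tap2, a subunit of the peptide transporter, rose at both of its probes in DKD against Sham. At A_42_P797381 the Sham arrays read -3.55, -3.97, -3.70, -3.66 and -3.62 and the DKD arrays -3.54 to -2.31, with a median of -2.65. Only DKD 1, at -3.54, came close to Sham, and the difference was 0.88 ± 0.21 (adjusted p = 0.00696). The second probe, A_64_P012977, rose by 0.86 ± 0.24 (adjusted p = 0.0166), with DKD 1 at -2.45 among the Sham arrays. The first of these probes lies at chr20:4770747-4770806 on rn4, and its last 30 bases are shown as those of the peptide transporter probe that separated the groups.

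Tap2 A_42_P797381: tgaccaagttctggtgctcaagcaggggca

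The other transporter subunit, Tap1, gave 0.62 ± 0.32 (adjusted p = 0.208) and 0.39 ± 0.26 (adjusted p = 0.359) at its 2 probes. Tapbp, which bridges the transporter and the class I molecule, gave 0.50 ± 0.17 (adjusted p = 0.0529), and it was called under 9 of the alternatives run, with an adjusted p down to 0.0079. The light chain B2m read 4.12, 4.26, 4.35, 4.19 and 4.26 in Sham and 4.199 to 4.60 in DKD, a difference of 0.20 ± 0.09 (adjusted p = 0.164). The Psmb8 probes gave 0.41 ± 0.23 (adjusted p = 0.255) and 0.41 ± 0.21 (adjusted p = 0.212), and Psmb9 gave 0.16 ± 0.22 (adjusted p = 0.731). For each of these genes the Sham and DKD arrays overlapped.

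**Figure D2:**
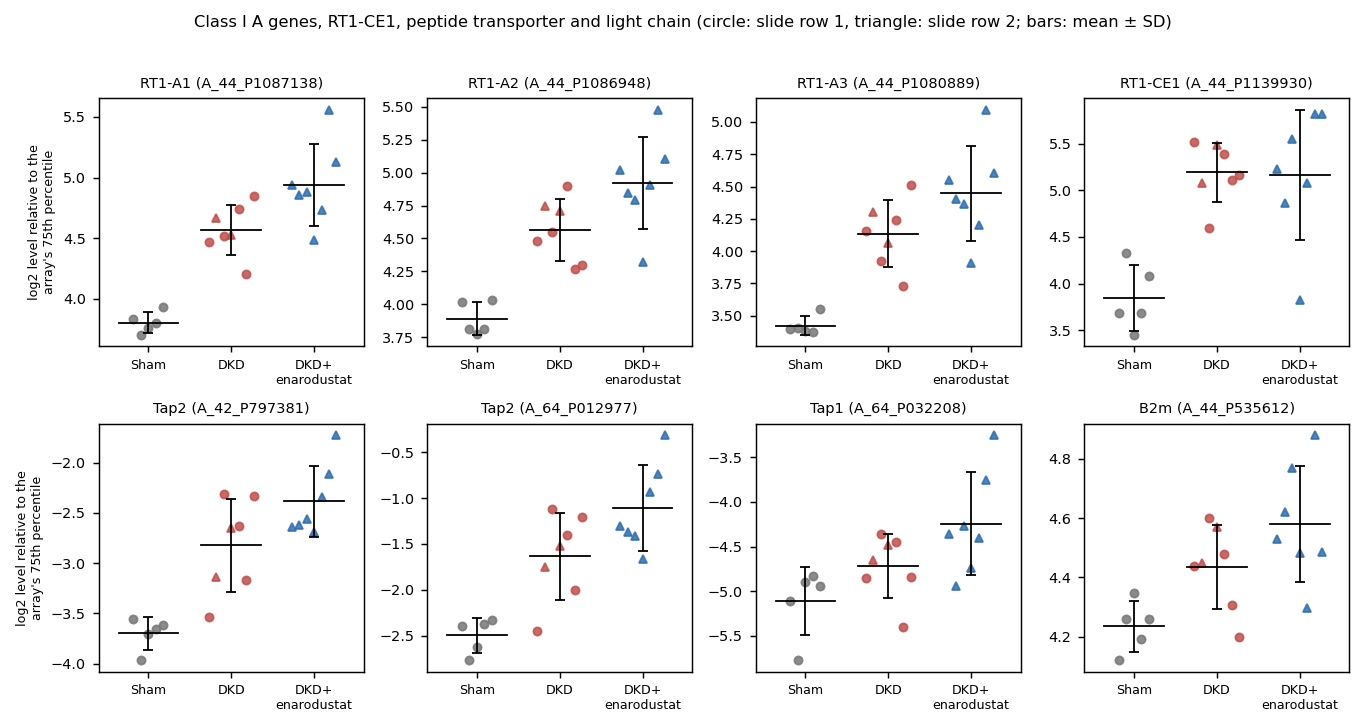
Log2 levels of the RT1-A, RT1-CE1, Tap2, Tap1 and B2m probes on each array by group, with slide row marked by symbol and bars giving the mean ± SD (n = 5, 7 and 7). The RT1-A1, RT1-A2 and RT1-A3 DKD arrays all lie above the Sham arrays, and DKD+enarodustat 6 is the highest array for each of those genes.

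Among the class II chains only RT1-DMa, the alpha chain of the peptide editor, rose in DKD. Its Sham arrays read -1.10, -1.62, -1.05, -1.31 and -1.58 and its DKD arrays -1.04 to -0.32 with a median of -0.56. The highest Sham array and the lowest DKD array were almost level but did not cross, and the difference was 0.67 ± 0.16 (adjusted p = 0.00791). Its partner RT1-DMb gave 0.31 ± 0.14 (adjusted p = 0.137).

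The antigen-presenting chains themselves overlapped between groups. RT1-Bb, a beta chain, gave 0.17 ± 0.27 (adjusted p = 0.777), RT1-Da, an alpha chain, 0.31 ± 0.25 (adjusted p = 0.471), and RT1-Db1, a beta chain, 0.22 ± 0.24 (adjusted p = 0.619). The invariant chain Cd74 read 3.46, 2.58, 3.37, 3.00 and 2.96 in Sham, 2.73 to 3.84 in DKD and 2.95 to 4.16 in DKD+enarodustat, a DKD difference of 0.12 ± 0.21 (adjusted p = 0.786). Sham 2 was the lowest Sham array and DKD+enarodustat 6 the highest of all arrays for Cd74, RT1-Bb, RT1-Da and RT1-Db1 alike. The RT1-Ba probe, for the partner of RT1-Bb, was well above background on 0 arrays, so that gene has no value here.

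**Figure D3:**
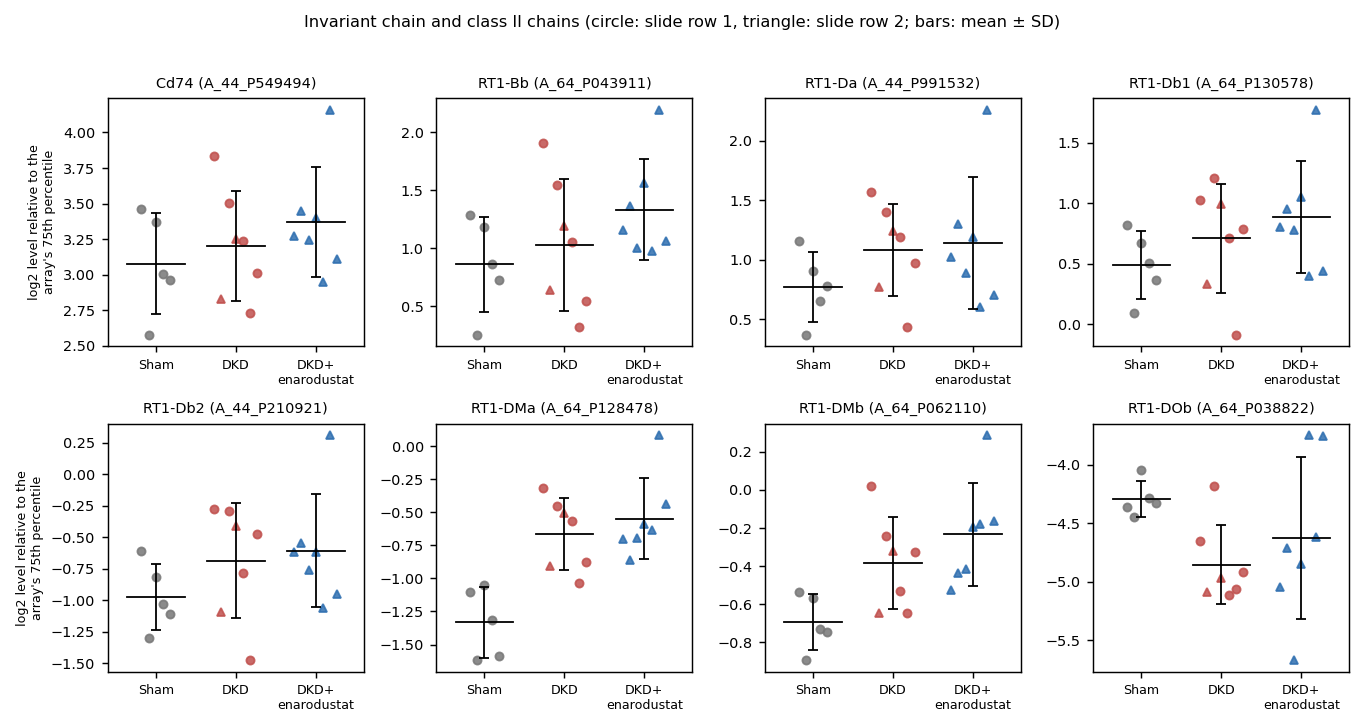
Log2 levels of Cd74 and 7 class II probes on each array by group, with slide row marked by symbol and bars giving the mean ± SD. Sham and DKD overlap for all but RT1-DMa, and DKD+enarodustat 6 is the highest array for Cd74, RT1-Bb, RT1-Da, RT1-Db1, RT1-Db2, RT1-DMa and RT1-DMb.

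Leukocyte markers were set beside these values because leukocytes carry much class I and class II RNA; in whole cortex, more cells of a type and more RNA per cell cannot be told apart. Of 12 measured genes expressed by all leukocytes 1 rose in DKD, with summed levels of 3.39 to 3.63 in Sham and 3.36 to 3.94 in DKD. Of 21 macrophage and dendritic cell genes 4 rose and 1 fell, with summed levels of 4.72 to 4.97 in Sham, 4.92 to 5.69 in DKD and 5.09 to 6.19 in DKD+enarodustat. Over these 21 genes the median DKD difference was 0.19, and 14 differences were positive. Over all measured probes 16.9% were called in DKD against Sham and 7.67% were higher. Among the genes that rose, Cd163, a scavenger receptor of macrophages, gave 3.17 ± 0.65 (adjusted p = 0.00248). Cd163 was well above background on only 11 arrays, so the size of its rise is not firm. Lyz2, macrophage lysozyme, rose by 0.57 ± 0.16 (adjusted p = 0.0172). Cd163 and Lyz2 are examples from the genes that rose and do not stand for the whole list. None of 7 B cell genes and none of 14 T and NK cell genes was called in DKD against Sham (0 in each list). The B cell markers Ms4a1 and Blk were well above background on 0 arrays. DKD+enarodustat 6 was the array with the highest summed level of the leukocyte, macrophage and T and NK cell lists. Adipocyte genes rose in 4 of 8, with summed levels of -1.16 to -0.44 in Sham, -0.26 to 4.91 in DKD and -0.14 to 3.66 in DKD+enarodustat. DKD 4 and DKD 2, the DKD arrays of slide row 2, were highest at 4.91 and 4.84, and DKD 6 was next at 3.04. Among DKD arrays slide row and adipocyte level thus moved together. Of the 12 proximal tubule genes 3 rose and 8 fell, with summed levels of 8.95 to 9.09 in Sham and 8.58 to 8.77 in DKD. The part of these markers in the RT1 differences was not tested.

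Of 20 other genes of class I transcription and loading, 2 rose and 2 fell in DKD, a share near the 16.9% of all probes called. Psme2, a proteasome activator subunit, rose by 0.26 ± 0.08 (adjusted p = 0.022), and Hfe, an iron-handling class I-like molecule, by 1.01 ± 0.23 (adjusted p = 0.00588). The chaperones Canx and Pdia3 fell by 0.18 (adjusted p = 0.0237) and 0.22 (adjusted p = 0.0494). Nlrc5, the transactivator of class I genes, gave 0.37 ± 0.21 (adjusted p = 0.259), and Ciita, that of class II genes, -0.12 ± 0.23 (adjusted p = 0.804). Of 18 genes of class II transcription and loading 1 rose (Ctsl, a lysosomal protease, by 0.51 ± 0.11; adjusted p = 0.00377) and 1 fell (Creb1, a factor at class II promoters, by 0.30; adjusted p = 0.00605).

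With enarodustat, RT1-T24-1, RT1-N3 and 1 of the RT1-T24-3 probes rose over untreated diabetic cortex. Of the 66 member probes 5 rose and 0 fell in DKD+enarodustat against DKD, by limma at an adjusted p of 0.05; over all probes 1.93% were called and 1.00% were higher. The 5 were the T24 and N genes RT1-T24-3 (1 probe), RT1-T24-1 (both probes) and RT1-N3 (both probes), which encode class I-like heavy chains of the non-classical region. In 2 member probes the groups did not overlap, which 0.621% of all probes showed. The median member difference was 0.21 and that of all probes -0.02.

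RT1-T24-3 carries 3 probes that do not measure the same place: A_44_P1085043 at chr20:2871256-2871315, and A_44_P1150779 and A_44_P1150774 at chr20:2895350-2895409 and chr20:2894769-2894828, the former 24.1 kb from the first on rn4. The last 30 bases of each are shown, since the probes disagree; capitals mark AATAAA, the usual signal for the end of a transcript.

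RT1-T24-3 A_44_P1085043: caagcctcAATAAAcatctttaaattctta
RT1-T24-3 A_44_P1150779: atgtcaacttgacacaggctggagctgtct
RT1-T24-3 A_44_P1150774: catacagcttctaaccactgagccggccat

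At A_44_P1085043 the Sham arrays read 0.37, 1.12, 1.57, 1.92 and 1.29, the DKD arrays -0.74 to 0.56 with a median of 0.10, and the DKD+enarodustat arrays 0.71 to 2.92 with a median of 2.36. The lowest treated array exceeded the highest DKD array, while DKD and Sham overlapped at Sham 1. The signal was the member probe that fell in DKD against Sham, by 1.22 (SE 0.36, adjusted p = 0.0276). It rose by 2.11 ± 0.33, or 4.33-fold, in DKD+enarodustat against DKD (adjusted p = 0.00156) and gave 0.90 ± 0.36 against Sham (adjusted p = 0.078). The fall in DKD was lost in 4 of the 19 fits without 1 array (Sham 3, 4 or 5 or DKD 6; adjusted p up to 0.0836). A_44_P1150779 gave 0.06 ± 0.11 in DKD against Sham (adjusted p = 0.818) and 0.10 ± 0.10 with enarodustat (adjusted p = 0.747), and A_44_P1150774 was well above background on 0 arrays.

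RT1-T24-1, a neighbouring gene, was measured by probes at chr20:2921878-2922247 and chr20:2924052-2924111, whose ends are shown because both rose.

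RT1-T24-1 A_44_P1086998: tttacccgaactgaccctccacagacaaca
RT1-T24-1 A_44_P885558: tatgaaaacactctaggctgctctaactat

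At A_44_P1086998 the Sham arrays read -3.09, -2.67, -2.38, -1.99 and -2.69, the DKD arrays -3.77 to -2.75 with a median of -3.34, and the DKD+enarodustat arrays -2.84 to -1.004 with a median of -1.56. DKD 4 alone among DKD arrays reached into the range of the treated group. Against Sham, A_44_P1086998 and A_44_P885558 gave -0.80 and -0.73 in DKD (adjusted p = 0.0876 and 0.226). In DKD+enarodustat against Sham they gave 0.83 and 0.78 (adjusted p = 0.0548 and 0.148). The rise over DKD was 1.63 ± 0.28 at A_44_P1086998 (adjusted p = 0.00355). A_44_P885558 rose by 1.52 ± 0.35 (adjusted p = 0.0321), with DKD at -5.65 to -3.30 and DKD+enarodustat at -4.05 to -1.93, so several arrays overlapped. That call was lost with the replicate number as a block (adjusted p = 0.0557) and in 8 of the 19 fits without 1 array (DKD 3, 5, 6 or 7 or DKD+enarodustat 2, 3, 5 or 7; adjusted p up to 0.0752).

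RT1-N3 was read at chr20:2809067-2809126 (A_44_P1085053) and chr20:2810020-2810079 (A_64_P139947), both of which rose.

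RT1-N3 A_44_P1085053: tctgcaattgccctctgcgttgctgctgtg
RT1-N3 A_64_P139947: actttaggatttctaagcttgtcaccctaa

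At A_64_P139947 the Sham arrays read -2.44, -2.12, -2.03, -1.98 and -2.23, the DKD arrays -2.77 to -2.02 with a median of -2.46, and the DKD+enarodustat arrays -2.02 to -1.42 with a median of -1.83. Against Sham, A_64_P139947 and A_44_P1085053 gave -0.28 and -0.30 in DKD (adjusted p = 0.212 and 0.246). In DKD+enarodustat against Sham they gave 0.39 and 0.32 (adjusted p = 0.0549 and 0.177). At A_64_P139947 the treated and untreated diabetic arrays did not overlap, by a narrow margin, and the rise over DKD was 0.67 ± 0.13 (adjusted p = 0.0103). A_44_P1085053 rose by 0.62 ± 0.15 (adjusted p = 0.0413). Its call was lost with the replicate number as a block (adjusted p = 0.0765) and in 12 of 19 fits without 1 array (Sham 2, 4 or 5, DKD 2, 3, 5 or 6, or DKD+enarodustat 2, 3, 5, 6 or 7; adjusted p up to 0.0991).

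**Figure D4:**
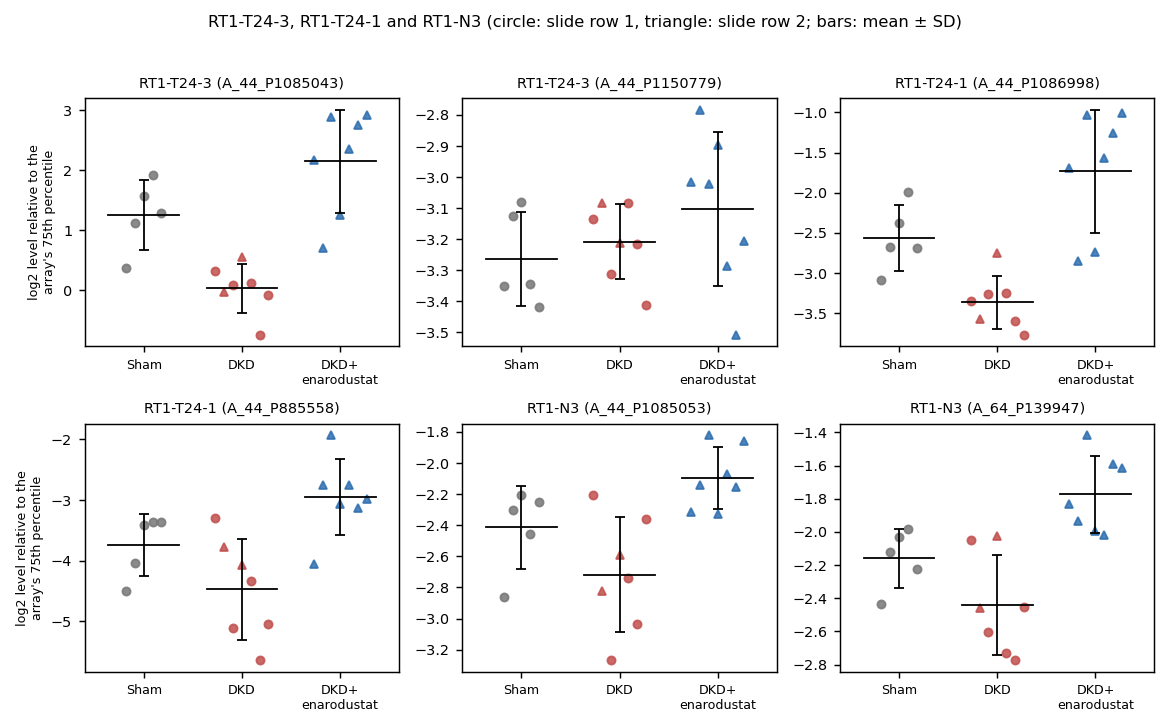
Log2 levels of 2 probes each of RT1-T24-3, RT1-T24-1 and RT1-N3 on each array by group, with circles for slide row 1, triangles for slide row 2 and bars for the mean ± SD. For RT1-T24-3 the DKD arrays of both rows lie below all DKD+enarodustat arrays at A_44_P1085043, and the groups overlap at A_44_P1150779.

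Slide row moved with this comparison, since 5 of 7 DKD arrays lay in row 1. With row as a covariate the 5 differences were 1.88 for RT1-T24-3 (adjusted p = 0.16), 1.43 and 0.97 for RT1-T24-1 (adjusted p = 0.235 and 0.651) and 0.61 and 0.47 for RT1-N3 (adjusted p = 0.428 and 0.482). By limma 0 members were then called (11 at an unadjusted p under 0.05), with 95 of all probes called. On row 2 arrays alone, 2 DKD against 7 treated, the RT1-T24-3 difference was the same 1.88 (adjusted p = 0.592). The equal size follows from the design and is not a second result. All treated arrays lie in row 2, so both fits set them against DKD 2 and DKD 4, at -0.02 and 0.56. Within slides 1, 2 and 3 the RT1-T24-3 difference was 1.29, 1.74 and 2.92. Over all fits run, RT1-T24-1 ranged from 1.12 to 2.26 at A_44_P1086998 and from 0.13 to 2.095 at A_44_P885558. RT1-N3 ranged from 0.28 to 0.86 at A_44_P1085053 and from 0.37 to 0.91 at A_64_P139947. The part of slide row in these calls was not tested beyond these fits. Without DKD+enarodustat 6 and 7, a choice made after seeing the data, 2 of the 5 calls remained: RT1-T24-3 (1.84, adjusted p = 0.0113) and RT1-T24-1 A_44_P1086998 (1.39, adjusted p = 0.0234).

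Other members named after their values were seen came near the threshold. RT1-CE5 gave 0.96 ± 0.25 (adjusted p = 0.0612), the RT1-T24-4 probe A_44_P1085048 gave 0.51 ± 0.14 (adjusted p = 0.0618), and the RT1-S3 probe A_44_P454420 gave 0.86 ± 0.23 (adjusted p = 0.0615). The other RT1-S3 probe, A_44_P128151, gave 0.23 ± 0.17 (adjusted p = 0.634). RT1-N2 gave 0.388 ± 0.105 (adjusted p = 0.0687), and its probe differs from RT1-N3 A_44_P1085053 at 4 of 49 aligned bases. The RT1-CE5 probe differs from RT1-T24-4 A_44_P1085048 at 5 of 48 aligned bases. The signals within each of these pairs may therefore not be separate. RT1-T24-4 also has 2 probes of identical sequence (A_44_P1099873 and A_64_P156436), and they gave 0.67 ± 0.23 and 0.64 ± 0.22, both with an adjusted p of 0.17.

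The genes that rose in DKD did not pass the test against DKD once enarodustat was given. RT1-A1 gave 0.37 ± 0.13 (adjusted p = 0.167), RT1-A2 0.36 ± 0.14 (adjusted p = 0.229), RT1-CE1 -0.02 ± 0.26 (adjusted p = 0.992) and the Tap2 probes 0.44 ± 0.19 and 0.53 ± 0.21 (adjusted p = 0.297 and 0.258). In the class II set 0 of 8 probes were called, with differences of 0.06 to 0.30. Cd74 gave 0.17 ± 0.20 (adjusted p = 0.816) and B2m 0.14 ± 0.09 (adjusted p = 0.489). Psmb8 gave 0.33 ± 0.21 and 0.38 ± 0.19 (adjusted p = 0.544 and 0.4), and Psmb9, also not called, 0.34 ± 0.20.

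Of 37 measured interferon response genes, 10 rose and 0 fell between the diabetic groups, beside 1.00% of all probes that were higher, and the median difference was 0.58. With slide row as a covariate the calls over all probes went from 585 to 95, and whether any of these 10 calls remained was not examined. Irf7, a transcription factor of that response, rose by 2.23 ± 0.47 (adjusted p = 0.0182), Mx1, an antiviral GTPase, by 1.33 ± 0.29 (adjusted p = 0.0211) and Mx2 by 0.33 ± 0.06 (adjusted p = 0.00603). In DKD against Sham 2 of the 37 rose and 2 fell, Mx2 among the latter (by 0.51, adjusted p = 5.4e-05). Macrophage and dendritic cell genes gave 0 calls of 21 between the diabetic groups, all-leukocyte genes 0 of 12, B cell genes 0 of 7 and T and NK cell genes 0 of 14.

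Against Sham, treated diabetic cortex had the most member probes called: 31 of 66 rose and 0 fell, with 26.4% of all probes called in either direction and 9.62% higher. In 13 member probes the groups did not overlap, which 5.40% of all probes showed, and the median member difference was 0.62 beside -0.05 over all probes. This comparison shares its Sham arrays with DKD against Sham and its treated arrays with the other comparison, and slide row cannot be told apart from group in it. Other lists moved in it too. Of 21 macrophage and dendritic cell genes 9 rose and 0 fell (median 0.41), of 37 interferon response genes 10 rose and 0 fell, and of 14 T and NK cell genes 2 rose. Of 8 adipocyte genes 3 rose, and of 12 proximal tubule genes 3 rose and 9 fell. Their part in the member differences was not tested. RT1-A1 rose by 1.14 ± 0.14 (adjusted p = 1.71e-05), RT1-A2 by 1.04 ± 0.15 (adjusted p = 8.44e-05) and RT1-A3 by 1.02 ± 0.16 (adjusted p = 0.00014). The Tap2 probes rose by 1.32 ± 0.21 (adjusted p = 0.000163) and 1.39 ± 0.23 (adjusted p = 0.000304), and the Tap1 probe A_64_P032208 by 0.86 ± 0.26 (adjusted p = 0.0186).

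B2m, with Sham at 4.12 to 4.35 and DKD+enarodustat at 4.30 to 4.88, rose by 0.34 ± 0.09 (adjusted p = 0.0105). With normexp and quantile normalization the B2m difference was 0.19 (adjusted p = 0.127). Both Psmb8 probes rose, by 0.74 ± 0.23 (adjusted p = 0.023) and 0.80 ± 0.21 (adjusted p = 0.00973), while Psmb9 gave 0.50 ± 0.22 (adjusted p = 0.107). RT1-DMa rose by 0.79 ± 0.16 (adjusted p = 0.0016) and RT1-DMb by 0.46 ± 0.14 (adjusted p = 0.0174; 0.42 and adjusted p = 0.051 with the replicate number as a block). Nlrc5 rose by 0.98 ± 0.21 (adjusted p = 0.0018). Cd74 gave 0.29 ± 0.21 (adjusted p = 0.355). Leaving out Sham 2 ended the calls of RT1-DMb (adjusted p = 0.051), of Tap1 A_64_P032208 (0.0623) and of Psmb8 A_42_P761035 (up to 0.0642, also without Sham 1). Once slide row entered the fit, 2 of the 31 members were called, RT1-A1 (1.099, adjusted p = 0.0213) and Tap2 A_42_P797381 (1.42, adjusted p = 0.0402). Sham and treated arrays share no row, so the row effect in that fit comes only from DKD 2 and DKD 4 against the other DKD arrays. These 2 calls therefore do not separate row from group.

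RT1-O1 and RT1-S2 each had a probe whose levels split the arrays across the groups. The median within-group SD was 0.39 over the measured members and 0.26 over all measured probes. RT1-O1 (A_44_P1080490) and RT1-S2 (A_44_P1115632) had within-group SDs of 1.87 and 1.78; both were named after their values were seen. RT1-O1 was well above background on 12 of 19 arrays and the RT1-S2 probe on 6, so the low values and the size of these SDs are not firm. On rn4 their probes start 3.4 kb apart, at chr20:2801455-2801636 and chr20:2804854-2804913, and their last 30 bases are shown because their levels split the arrays alike.

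RT1-O1 A_44_P1080490: ggactcctctcaggagacttgaaaaggtga
RT1-S2 A_44_P1115632: caaactttacacgctataatgtgatttttt

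RT1-O1 read -3.77, -7.90, -7.58, -8.83 and -7.93 in Sham arrays 1 to 5, and -7.17, -3.23, -5.51, -2.77, -2.96, -3.58 and -7.32 in DKD arrays 1 to 7. In DKD+enarodustat it read -2.23 in array 1 and -7.02 to -6.00 in the other arrays. RT1-S2 at this probe read -5.79 in Sham 1 and -9.89 to -9.57 in the other Sham arrays. Both probes were thus high on Sham 1, on DKD 2, 4, 5 and 6 and on DKD+enarodustat 1, and lower on the other arrays, DKD 3 (-5.51 and -8.10) lying between; the RT1-S2 probe was well above background on 1 Sham, 4 DKD and 1 DKD+enarodustat arrays. Neither passed the test in any comparison (adjusted p of 0.107 and 0.253 in DKD against Sham). The other RT1-S2 probe, A_64_P057222, differs from RT1-CE16 A_44_P1100124 at 2 of 34 aligned bases, so its signal may include RT1-CE16 RNA. It lies 9.8 kb from the first RT1-S2 probe and showed no such split: Sham read 1.18 to 1.77 and DKD 1.71 to 2.38. It rose by 0.50 ± 0.16 in DKD (adjusted p = 0.0366), a call lost in 8 of the 19 fits without 1 array (Sham 1, 2, 3 or 5 or DKD 2 to 5; adjusted p up to 0.103) and with DKD arrays of slide row 1 only (0.41, adjusted p = 0.101).

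**Figure D5:**
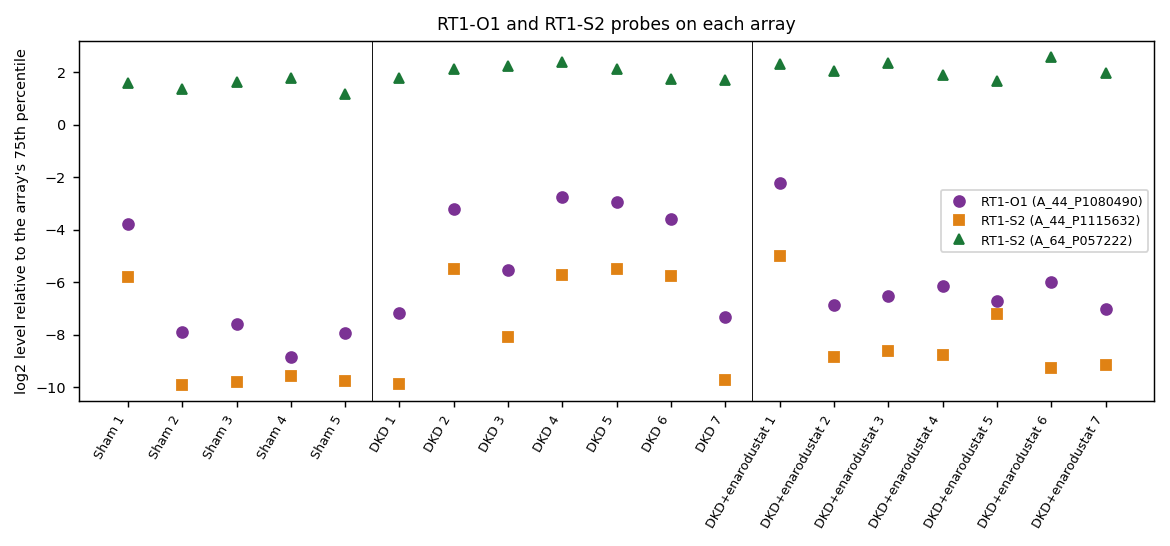
Log2 levels of RT1-O1 and of both RT1-S2 probes on each of the 19 arrays. RT1-O1 and RT1-S2 (A_44_P1115632) are high on the same arrays, Sham 1, DKD 2, 4, 5 and 6 and DKD+enarodustat 1, and RT1-S2 (A_64_P057222) stays between 1.18 and 2.57.

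Of the 55 gene names, 47 had a RefSeq promoter on GRCr8, and the 250 bases before the start were searched on both strands. The core of the interferon-stimulated response element, a pair of GAAA words with any 2 bases between them, was in 7 of the 47 (B2m, RT1-N3, RT1-S2, RT1-S3, Tap1, Tap2 and Tapbp) and in 3.29% of 27457 promoters. CCAAT was in 32 of the 47 and in 34.3% of all, TGACG in 11 and 19.0%, and TTCNNNGAA in 3 and 7.52%. A loose kappa B-like pattern (GGG, any 4 bases, TCC) was in 9 and 15.5%. The hypoxia-response cores ACGTG and GCGTG were in 4 and 12 of the 47 and in 16.9% and 27.2% of all promoters. These are matches of letters and not measured binding.

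Promoters are shown for 1 gene of each set that moved: RT1-A1 (chr20:4906959-4907208, plus strand), Tap2 (chr20:4652297-4652546, minus strand) and RT1-T24-3 (chr20:2722875-2723124, plus strand), with matches other than the hypoxia cores in capitals.

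RT1-A1: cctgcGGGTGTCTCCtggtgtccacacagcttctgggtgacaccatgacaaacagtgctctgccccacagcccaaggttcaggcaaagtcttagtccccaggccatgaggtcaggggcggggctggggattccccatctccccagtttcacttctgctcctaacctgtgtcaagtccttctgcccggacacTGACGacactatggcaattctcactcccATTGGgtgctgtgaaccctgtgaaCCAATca
Tap2: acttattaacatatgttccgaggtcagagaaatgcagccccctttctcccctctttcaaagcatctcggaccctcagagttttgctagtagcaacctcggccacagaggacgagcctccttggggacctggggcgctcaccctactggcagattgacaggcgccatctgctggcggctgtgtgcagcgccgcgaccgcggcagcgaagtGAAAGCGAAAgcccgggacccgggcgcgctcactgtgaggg
RT1-T24-3: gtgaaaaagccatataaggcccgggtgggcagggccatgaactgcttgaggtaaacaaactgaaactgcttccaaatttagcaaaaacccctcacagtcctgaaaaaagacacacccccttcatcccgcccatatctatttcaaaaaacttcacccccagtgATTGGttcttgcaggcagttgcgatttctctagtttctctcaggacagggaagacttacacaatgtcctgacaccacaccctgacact

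RT1-A1 held CCAAT on the plus strand 7 to 3 bases before its start and on the minus strand 31 to 27 bases before it. Tap2 held the interferon-stimulated core 41 to 32 bases before its start, and RT1-T24-3 held CCAAT on the minus strand 88 to 84 bases before its own. Neither printed promoter of RT1-A1 or RT1-T24-3 holds that core, and this says only that the letters are not in that window. The search took exact letters, so variant forms of the interferon motif would be missed. The kappa B-like pattern is not the full kappa B motif, so forms ending in CCC were neither counted nor put in capitals. RT1-A1 holds such a form in lower case, ggggattccc. Absence of other forms from these promoters is not shown.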

How the data were processed

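Members and gene lists were chosen with earlier results of these data known. Per the file headers, the authors deposited a Cy3 intensity per spot from Agilent Feature Extraction 11.5.1.1, background-subtracted and detrended. The authors also deposited log2 expression values of 22739 probes, used as an alternative, whose method is not given in the sources used here. Log2 intensities were scaled to each array's 75th percentile, outlier spots were left out and spots of a probe averaged (65 values missing). Probes well above background on 5 or more of 19 arrays were fitted with limma 3.58.1 in R 4.3.3 (with data.table, version 1.17.8), all 3 groups together, no covariate. Tests are two-sided, with a threshold of 0.05. The number of arrays limits the precision.

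Named were the antigen-presentation and main RT1 genes and up to 20 called member probes with the smallest adjusted p. The accession of 64 of 78 probes led to the same symbol in RefSeq (GRCr8), and the other 14 kept the file's name. The file headers place probes on rn4. Replicate numbers coincide with slides (1 and 2, 3 and 4, 5 to 7), and all 17 same-number pairs had deviations correlated at 0.12 to 0.58. Pairs of different numbers were not compared, so a shared slide and a pairing of rats were not told apart. The main fit has no pairing, and the replicate number entered as a block in an alternative fit. Alternatives were other normalizations, filters, slide, slide row, replicate block and leaving out arrays. The fit of DKD against Sham was also run on simulated data with independent noise per probe. Those data held no slide, row or replicate structure, so they do not test effects of these.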

Additional observations from a re-analysis of the deposited data

Results flagged for a closer look

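Each level of the 32 named probes was examined within each group for an array far from the others. Of 96 groups of levels, 8 had such an array, and chance alone gives about 5%. Sham 1 stood high for RT1-CE16 A_44_P1087143 (1.20), RT1-CE7 A_44_P1360072 (0.56) and RT1-EC2 A_44_P1100094 (1.81), the first and last of which have nearly the same probe sequence. DKD+enarodustat 6 stood high for Cd74 (4.16) and RT1-Da (2.26). RT1-A3 was high in Sham 5 (3.55), Tap1 A_43_P15763 was low in Sham 2 (-7.34) and RT1-CE13 A_64_P090593 was low in DKD 6 (-0.81). Causes were not tested.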

How the results depend on the processing

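Of 18 called members in DKD against Sham, 5 in DKD+enarodustat against DKD and 31 in DKD+enarodustat against Sham, limma called 0 in each comparison within slide 1, within slide 2 and within slide 3, where fewer arrays enter (7 to 27 members had an unadjusted p under 0.05). With slide row as a covariate DKD+enarodustat against DKD gave 0 and DKD+enarodustat against Sham 2 (11 and 15 at an unadjusted p under 0.05). Row 2 arrays alone gave 0 for DKD+enarodustat against DKD (9 at an unadjusted p under 0.05). By design their differences equal those of the row covariate fit. Slide as a block with slide row as a covariate, chosen after seeing the data, gave 10, 0 and 0 in the order above (24, 11 and 11 at an unadjusted p under 0.05). Without DKD+enarodustat 6 and 7, also chosen after seeing the data, the counts were 19, 2 and 20. DKD+enarodustat against DKD gave 8 with normexp and quantile normalization, 13 of 57 in the authors' value table, 10 with slide as a block, and 3 each without a filter on dim probes, with 1 probe per gene name and with the replicate block. The replicate block gave 14 and 25 in the other comparisons and ended no call of a named probe other than the 5 named beside their results. Leaving out 1 array gave 11 (without Sham 5) to 20 called members in DKD against Sham and 23 to 38 in DKD+enarodustat against Sham. It gave 3 (without DKD 3, 5 or 6 or DKD+enarodustat 3, 5 or 7) to 9 (without DKD+enarodustat 4) in DKD+enarodustat against DKD. No called difference of the 32 named probes turned its sign under any alternative run. Why the counts moved was not tested. Dim probes such as RT1-S2 A_44_P1115632, above background on 6 arrays, have no firm level elsewhere.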
